A study of Mus musculus with 12 samples.

Results

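The genes described here are the Wnt ligands, their receptors and their antagonists, as measured by mRNA sequencing of mouse skin with and without epidermal Pparg. Members were chosen by symbol alone, namely numbered genes of the Wnt, Fzd, Sfrp, Dkk and Rspo families together with Wif1, Lrp5, Lrp6, Axin1, Axin2, Nkd1, Nkd2, Notum, Porcn, Wls, Ror1, Ror2, Ryk, Znrf3 and Rnf43. This gave 44 of the 14533 genes in the count table. All 12 mice were untreated C57BL/6 animals with both Pparg alleles floxed, so the controls carried the floxed alleles too. The 6 WT siblings were Cre-/-, and the 6 Pparg-/-epi mice carried Cre+/- under the Cytokeratin14 promoter, which is active in keratinocytes and not in dermal, vascular or immune cells. Mice were 8 to 13 weeks old in both groups, with 3 females and 3 males among the WT mice and 4 females and 2 males among the Pparg-/-epi mice. Frozen dorsal skin was scraped with a curette down to the vascular bed under the epidermis, so each library, made from 1 mouse, also held superficial dermis.

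Wnt proteins are secreted lipid-modified ligands that act over short distances between neighbouring cells. A ligand bound to a Frizzled receptor and an Lrp5 or Lrp6 coreceptor stops the destruction of beta-catenin, which then works with TCF/LEF factors on target genes, while other Wnts act through Ror and Ryk receptors or through planar cell polarity. In skin the pathway is known for forming hair follicles, for starting their growth phase and for maintaining basal keratinocytes.

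Total counts were between 10120840 and 16947632 in WT mice and between 11272135 and 18851255 in Pparg-/-epi mice. Values are given as CPM, counts brought to a common library size with TMM scaling, or as RPKM, the same divided by the gene's length in kilobases, which is the scale used for comparing genes. Of the 44 members, 39 were above 0.5 CPM in every mouse, and the remaining 5 (Fzd4, Wif1, Notum, Sfrp2 and Sfrp5) in 6 to 10 mice. The table lists only genes above 0.5 CPM in at least 6 mice, and 13 RefSeq symbols that fit the same rule are not in it, among them Wnt1, Wnt2, Wnt7a, Rspo2, Dkk1 and Sfrp4. Pparg itself had between 5 and 269 counts in WT mice and between 16 and 107 in Pparg-/-epi mice. It did not tell the genotypes apart (log2 fold change -0.10, SE 0.71). Only totals per gene were available, so the floxed exons were not examined separately. Why the Pparg ranges overlapped was not tested. Keratinocyte markers were abundant in every mouse, with a summed level between 15684 and 48149 CPM for 7 genes. Fibroblast markers, collagens among them, were also high, with a summed level between 1142 and 35128 CPM for 10 genes.

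Genes whose log2 fold change reached 0.6 in either direction, with an adjusted p below 0.05 in edgeR's quasi-likelihood test over all genes, are called altered, and adjusted p-values are from that test unless another is named. Loss of epidermal Pparg altered 5 of the 44 members (11.4%), against 10.3% of all genes tested. Transcripts for the R-spondin Rspo3, the Dishevelled-binding feedback inhibitor Nkd2 and the ligand Wnt7b were lower in Pparg-/-epi mice, while the ligand acyltransferase Porcn and the ligand Wnt11 were higher. In all genes 5.08% were altered and lower and 5.19% altered and higher, so the share of altered members was near that of all genes. The groups did not overlap in CPM for Rspo3, Nkd2 and Porcn, which is 6.82% of the members against 7.9% of all genes. The median log2 fold change was -0.05 over the 44 members and -0.01 over all genes. An unadjusted p under 0.05 was reached by 16 members (36.4%), against 29.5% of all genes. Other fits gave counts from 2 to 10 members. The likelihood ratio test of edgeR altered 6 members (11.8% of all genes) and DESeq2 altered 8 (12.4%). Female mice alone gave 3 (4.48% of all genes), and the fit without the 4 WT mice whose names carry the number 226 gave 2 (2.68%). Those 4 mice were 12 or 13 weeks old, while WT replicates 1 and 2 were 8 and 9 weeks old. Name number and age therefore cannot be told apart among the WT mice.

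**Figure D1:**
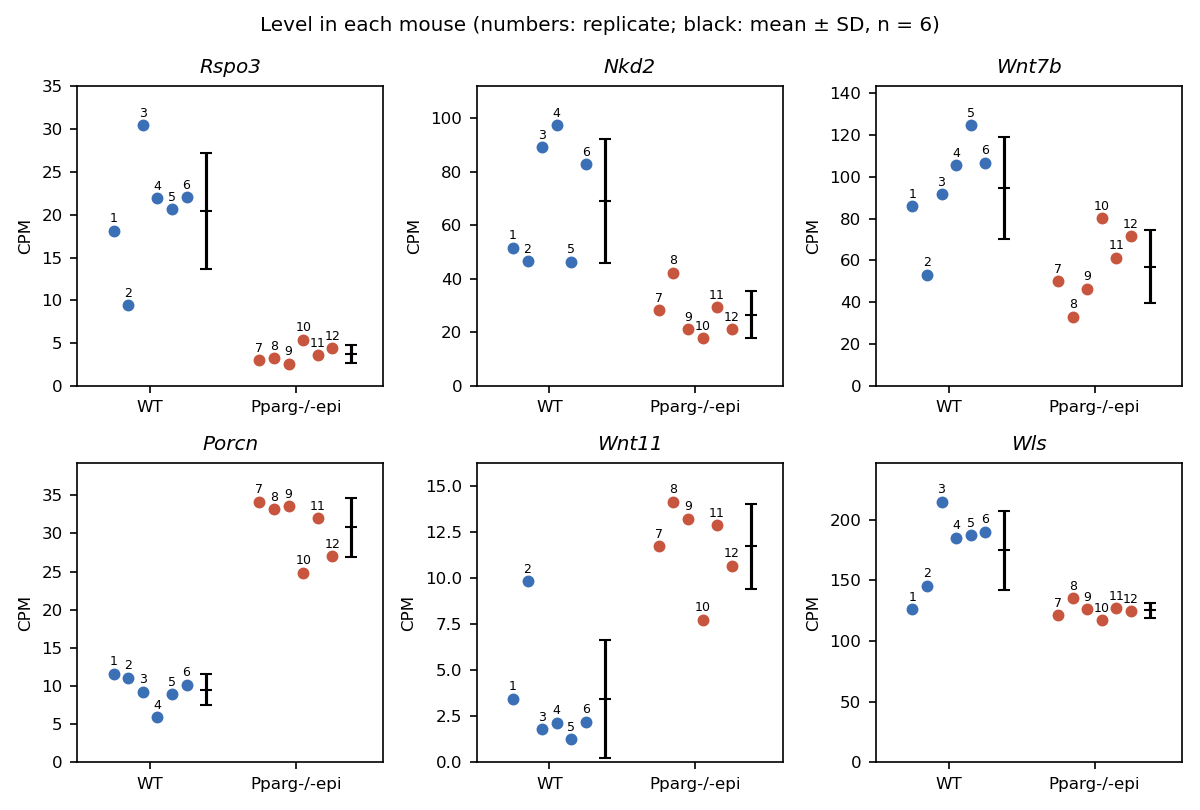
Level in CPM (vertical axes, starting at 0) of the 5 altered genes and Wls in each of the 6 WT and 6 Pparg-/-epi mice. Each point is 1 mouse with its replicate number, and black bars are the mean ± SD. Rspo3 and Nkd2 lie lower and Porcn higher in all Pparg-/-epi mice, while for Wnt11 only WT replicate 2, at 9.82 CPM, reaches the range of the Pparg-/-epi mice.

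Promoter sequences of an altered gene that was lower (Nkd2) and of one that was higher (Wnt11) are shown, to place both transcripts at their start sites. Of the 5 altered members only these 2 had a promoter entry, so Rspo3, Porcn and Wnt7b were not examined. The RefSeq sequences (GRCm38.p6) run from 250 bases before to 50 bases after the start site, which is also the end of the gene in the count table. Nkd2 lies on the minus strand and its window is chr13:73847582-73847881. Wnt11 lies on the plus strand and its window is chr7:98834862-98835161. It had 2 promoter entries, and only the one at the end of the gene in the count table was used. Capitals mark a match to CTTTGA, the core that TCF/LEF factors recognise, read on either strand.
Nkd2: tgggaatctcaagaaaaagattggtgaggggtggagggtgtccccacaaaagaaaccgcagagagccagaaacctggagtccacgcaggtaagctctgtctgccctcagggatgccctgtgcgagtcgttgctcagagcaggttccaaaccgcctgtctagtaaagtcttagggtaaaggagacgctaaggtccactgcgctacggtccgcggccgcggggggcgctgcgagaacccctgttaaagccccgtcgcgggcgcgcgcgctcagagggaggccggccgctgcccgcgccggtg
Wnt11: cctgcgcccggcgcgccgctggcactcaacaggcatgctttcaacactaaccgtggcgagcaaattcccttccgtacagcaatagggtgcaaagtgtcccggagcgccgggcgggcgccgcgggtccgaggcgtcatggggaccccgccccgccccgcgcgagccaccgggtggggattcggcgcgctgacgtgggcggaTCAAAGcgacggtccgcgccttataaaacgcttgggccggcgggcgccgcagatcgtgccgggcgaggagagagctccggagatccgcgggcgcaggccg
The match in Wnt11 is TCAAAG, the reverse strand of CTTTGA, at bases -50 to -45 from the start site. CTTTGA on either strand was present in 3 of the 28 members with a promoter entry (10.7%) and in 16% of 32851 RefSeq promoters of the same length. AGGTCA, the core that nuclear receptors such as PPARγ recognise, was in the window of 1 member, Wnt16, and in 16.3% of all promoters. Its direct repeat with 1 base between the copies, to which PPARγ binds together with RXR, was in none of the 28 windows and in 0.0396% of all promoters. These matches describe the letters of the windows and are not binding sites.

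Among the 12 Wnt ligands, 1 rose and 1 fell, and 5 had positive and 7 negative log2 fold changes (median -0.26). Per length, Wnt4 and Wnt3 were the highest ligands, with 31.0 and 26.4 RPKM over all mice, followed by Wnt7b (17.2 RPKM) and Wnt10a (15.6 RPKM), and the remaining 8 lay between 0.692 and 7.15 RPKM. Their sum was between 77.7 and 152 RPKM in WT mice and between 86.1 and 128 RPKM in Pparg-/-epi mice.

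Wnt11, a ligand known mainly for beta-catenin-independent signalling, is at chr7:98835112-98854747 of mm10. In WT mice its lowest, median and highest values were 1.26, 2.18 and 9.82 CPM, and in Pparg-/-epi mice 7.74, 12.3 and 14.1 CPM. All WT mice apart from replicate 2 were at or below 3.45 CPM, and only that mouse overlapped the Pparg-/-epi range. The difference was a 3.35-fold rise (log2 fold change 1.75, SE 0.43, adjusted p = 0.0175), which became 2.40 without WT replicate 2 (adjusted p = 0.000109, edgeR). Wnt11 was altered in all 12 fits that left out 1 mouse. In the fit to females only it did not pass (log2 fold change 1.45, adjusted p = 0.155, edgeR), nor did it without the WT mice numbered 226 (0.83, adjusted p = 0.273, edgeR).

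Wnt7b, an epidermal ligand of the beta-catenin branch, is at chr15:85535437-85581821. Its lowest, median and highest values were 53.2, 98.5 and 125 CPM in WT mice and 33.2, 55.6 and 80.0 CPM in Pparg-/-epi mice. The groups overlapped, as WT replicate 2 was the lowest WT mouse and Pparg-/-epi replicates 10, 11 and 12 lay above it. The log2 fold change was -0.73 (SE 0.23, adjusted p = 0.0453). This call was the least stable of the 5, since it was lost when any of WT replicates 3 to 6 or Pparg-/-epi replicates 7, 8, 9 or 11 was left out, with adjusted p-values from 0.0664 to 0.0953 (edgeR). With RIN, the RNA integrity number, as a covariate the log2 fold change was -0.52 (adjusted p = 0.0906, edgeR), and without the WT mice numbered 226 it was -0.28 (adjusted p = 0.664, edgeR). With a block that set mice numbered below 220 apart from those numbered from 220 up, it was -0.60 (adjusted p = 0.0717, edgeR).

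The other abundant ligands did not pass the test. Wnt4, a ligand made by keratinocytes, was between 57.1 and 158 CPM in WT mice (median 125) and between 86.9 and 159 CPM in Pparg-/-epi mice (median 116), a log2 fold change of 0.06 (SE 0.23, adjusted p = 0.900). Wnt3, a beta-catenin ligand, averaged 93.7 CPM in WT mice (range 49.5 to 117) and 71.0 CPM in Pparg-/-epi mice (range 51.2 to 89.5), with a log2 fold change of -0.40 (SE 0.19, adjusted p = 0.194). In both genes the WT range enclosed most of the Pparg-/-epi range, and WT replicate 2 was the lowest WT mouse.

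Wnt16, a ligand known from epidermis and bone, was just outside the threshold. Its lowest, median and highest values were 9.98, 14.8 and 28.1 CPM in WT mice and 2.23, 6.81 and 14.3 CPM in Pparg-/-epi mice. This gave a log2 fold change of -1.18 (SE 0.38, adjusted p = 0.0539). The likelihood ratio test of edgeR gave an adjusted p of 0.0230 and DESeq2 0.0139 for the same difference. It also passed without WT replicate 2 (adjusted p = 0.0302, edgeR) and without Pparg-/-epi replicate 11 (adjusted p = 0.0211, edgeR), while without the WT mice numbered 226 the log2 fold change was -0.51 (adjusted p = 0.615, edgeR). Wnt3a had a log2 fold change of -0.63 (SE 0.24, adjusted p = 0.102) and passed only without WT replicate 2, at -0.77 (adjusted p = 0.0289, edgeR), against -0.17 without the WT mice numbered 226 (adjusted p = 0.781, edgeR). The remaining 6 ligands, Wnt5a, Wnt5b, Wnt6, Wnt9a, Wnt10a and Wnt10b, had log2 fold changes between -0.76 (Wnt10b) and 0.37 (Wnt10a), and none was altered under any setting tried.

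**Figure D2:**
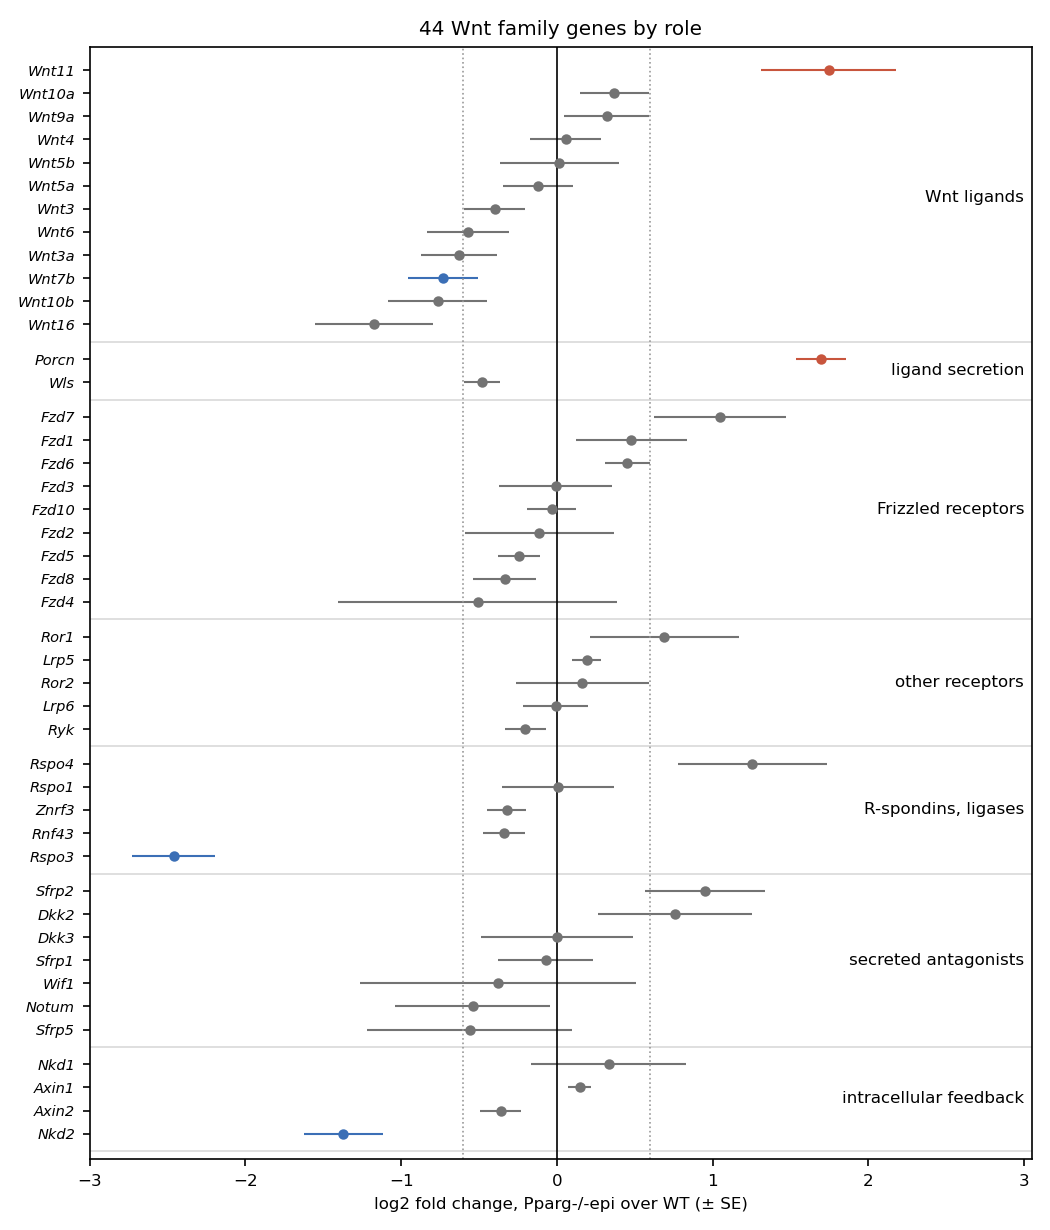
Log2 fold change of Pparg-/-epi over WT mice (horizontal axis, points with bars of ± 1 SE) for the 44 genes, grouped by role and ordered within it. Red and blue points are altered and higher or lower, grey points are not altered, and dotted lines mark 0.6 in each direction. Porcn and Wnt11 stand to the right at 1.70 and 1.75, and Rspo3 and Nkd2 to the left at -2.46 and -1.37.

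The genes for ligand release, Porcn and Wls, differed in opposite directions. Porcn attaches the palmitoleate that a Wnt needs to leave the cell, and it is at chrX:8193846-8206525. In WT mice its lowest, median and highest values were 5.92, 9.73 and 11.6 CPM, and in Pparg-/-epi mice 24.9, 32.6 and 34.2 CPM. Every Pparg-/-epi mouse was above every WT mouse, including WT replicate 2 at 11.1 CPM. The rise was 3.24-fold (log2 fold change 1.70, SE 0.16, adjusted p = 7.82e-05; exact permutation test of log2 CPM, two-sided, p = 0.00216, the smallest that 6 against 6 mice can give). Porcn was altered in all 12 fits that left out a mouse, with log2 fold changes from 1.59 to 1.75, and in all 12 other alternatives, from 1.45 to 1.87.

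Wls, the carrier that brings lipidated Wnts to the cell surface, was the second most abundant member per length at 54.2 RPKM. Its lowest, median and highest values were 126, 186 and 215 CPM in WT mice and 117, 125 and 136 CPM in Pparg-/-epi mice. WT replicate 1 was within the Pparg-/-epi range and WT replicate 2 just above it, while the WT mice numbered 226 were between 185 and 215 CPM. The log2 fold change of -0.48 (SE 0.12, adjusted p = 0.0152) passed the adjusted p and not the limit on fold change. Without the WT mice numbered 226 it was -0.11 (adjusted p = 0.608, edgeR).

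R-spondins are secreted proteins that amplify Wnt signals by removing Znrf3 and Rnf43, ubiquitin ligases that otherwise clear Frizzled receptors from the membrane. Of these 5 genes, Rspo3 fell and none rose. Rspo3 is at chr10:29453107-29535867. In WT mice its lowest, median and highest values were 9.45, 21.3 and 30.5 CPM (178 to 350 counts), and in Pparg-/-epi mice 2.60, 3.45 and 5.41 CPM (40 to 65 counts). Every Pparg-/-epi mouse was below every WT mouse, of which WT replicate 2 was the lowest. Rspo3 was 5.51-fold lower in Pparg-/-epi mice (log2 fold change -2.46, SE 0.27, adjusted p = 0.000206; exact permutation test of log2 CPM, two-sided, p = 0.00216). This was the largest fold change among the members, and it was altered in all 12 fits that left out a mouse (-2.63 to -2.31) and in all 12 other alternatives (-2.52 to -1.88).

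The other R-spondins in the table did not pass the test. Rspo1 had medians of 8.86 CPM in WT mice (range 4.28 to 21.6) and 11.6 CPM in Pparg-/-epi mice (range 9.56 to 17.0), with a log2 fold change of 0.01 (SE 0.36, adjusted p = 0.994). Rspo4 had medians of 1.92 CPM in WT mice (range 0.632 to 6.16) and 7.11 CPM in Pparg-/-epi mice (range 2.91 to 8.61), a log2 fold change of 1.25 (SE 0.48, adjusted p = 0.0966). Rspo4 was altered by DESeq2 (adjusted p = 0.0441) and without WT replicate 2, its highest WT mouse, at 1.72 (adjusted p = 0.0130, edgeR), while without the WT mice numbered 226 it was 0.38 (adjusted p = 0.689, edgeR). Per length, WT mice had 8.53 RPKM of Rspo3, 6.47 RPKM of Rspo1 and 1.08 RPKM of Rspo4. In Pparg-/-epi mice these levels were 1.55, 6.51 and 2.61 RPKM.

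The ligases Rnf43 and Znrf3 were both somewhat lower without passing the test. Rnf43 had medians of 33.6 CPM in WT mice (range 28.8 to 46.5) and 27.9 CPM in Pparg-/-epi mice (range 20.4 to 31.7), a log2 fold change of -0.34 (SE 0.13, adjusted p = 0.109). Znrf3 had medians of 40.2 and 33.1 CPM and a log2 fold change of -0.32 (SE 0.13, adjusted p = 0.106). The ranges of both genes overlapped between the groups. Of the receptors for R-spondins, Lgr6, which marks stem cells above the bulge and in the isthmus, fell from 33.6 ± 12.2 to 14.7 ± 3.52 CPM (SD, n = 6 each; log2 fold change -1.19, SE 0.23, adjusted p = 0.00477, edgeR), with no overlap of the groups.

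Rspo3 is known from dermal and endothelial cells among others, and markers of other cell types were measured beside it. Over all genes, 10.3% were altered, 5.19% being higher and 5.08% lower. The 10 fibroblast markers had 0 altered genes and a summed level between 1142 and 35128 CPM in WT mice and between 5717 and 11861 CPM in Pparg-/-epi mice. The 6 endothelial markers had 1 altered gene, Emcn, which rose with all mice and was altered in 5 of 12 fits without 1 mouse, and a summed level between 7.99 and 133 CPM in WT mice and between 33.4 and 210 CPM in Pparg-/-epi mice. The 7 markers of the bulge and outer root sheath had a summed level between 2692 and 4643 CPM in WT mice. In Pparg-/-epi mice it was between 924 and 1620 CPM. Most of it was Krt15 (76.4% to 98.0% in the WT libraries, 64.9% to 88.2% after deletion), the only altered gene of that list. Krt15 alone was between 2058 and 4407 CPM in WT mice and between 600 and 1423 CPM in Pparg-/-epi mice. Without Krt15, the sums of the groups overlapped. Of 6 sebaceous gland genes, 5 fell, with a summed level between 19.5 and 935 CPM in WT mice and between 2.41 and 10.2 CPM in Pparg-/-epi mice, where Awat1, Fa2h and Scd3 were at 0 in some mice. The part that follicle or gland cells had in the lower Rspo3, Nkd2 and Lgr6 was not tested. In scrapings, fewer cells of a type and less RNA per cell cannot be told apart.

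None of the 9 Frizzled receptors and none of the 5 other receptors was altered. Fzd6 and Fzd10 were the highest Frizzled receptors per length, at 28.8 and 21.8 RPKM, and Fzd4 the lowest at 1.29 RPKM. Fzd6, a receptor that orients hair follicles, had medians of 96.1 CPM in WT mice (range 83.2 to 122) and 145 CPM in Pparg-/-epi mice (range 104 to 173), with a log2 fold change of 0.45 (SE 0.15, adjusted p = 0.0556). Fzd10 had medians of 69.9 CPM (range 43.8 to 78.1) and 65.1 CPM (range 41.7 to 75.5), a log2 fold change of -0.03 (SE 0.16, adjusted p = 0.918).

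Fzd7 had the largest log2 fold change among the receptors, at 1.05 (SE 0.42, adjusted p = 0.118). Its lowest, median and highest values were 14.1, 35.6 and 96.9 CPM in WT mice and 49.2, 87.0 and 141 CPM in Pparg-/-epi mice. WT replicate 2, the highest WT mouse, lay among the Pparg-/-epi mice. Fzd7 was altered by DESeq2 (adjusted p = 0.0473) and without WT replicate 2, at 1.44 (adjusted p = 0.0156, edgeR). Without the WT mice numbered 226 it was 0.29 (adjusted p = 0.760, edgeR), and with only the mice numbered from 220 up 0.34 (adjusted p = 0.762, edgeR). The remaining 6 Frizzled genes had log2 fold changes between -0.51 (Fzd4) and 0.48 (Fzd1), and Fzd4 ranged from 0.213 to 16.6 CPM among WT mice alone.

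Ryk, an alternative receptor with an inactive kinase domain, was the most abundant member per length at 55.0 RPKM, and Lrp5 followed among the coreceptors at 26.7 RPKM. Ryk had medians of 193 CPM in WT mice (range 132 to 234) and 164 CPM in Pparg-/-epi mice (range 148 to 203), a log2 fold change of -0.20 (SE 0.13, adjusted p = 0.343). Lrp5 had medians of 128 CPM (range 108 to 151) and 146 CPM (range 134 to 168), a log2 fold change of 0.19 (SE 0.09, adjusted p = 0.194). Lrp6, Ror1 and Ror2 had log2 fold changes of -0.01, 0.69 and 0.16 (adjusted p-values 0.990, 0.369 and 0.843, edgeR). The Frizzled receptors summed to between 55.4 and 108 RPKM in WT mice and to between 65.9 and 124 RPKM in Pparg-/-epi mice.

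**Figure D3:**
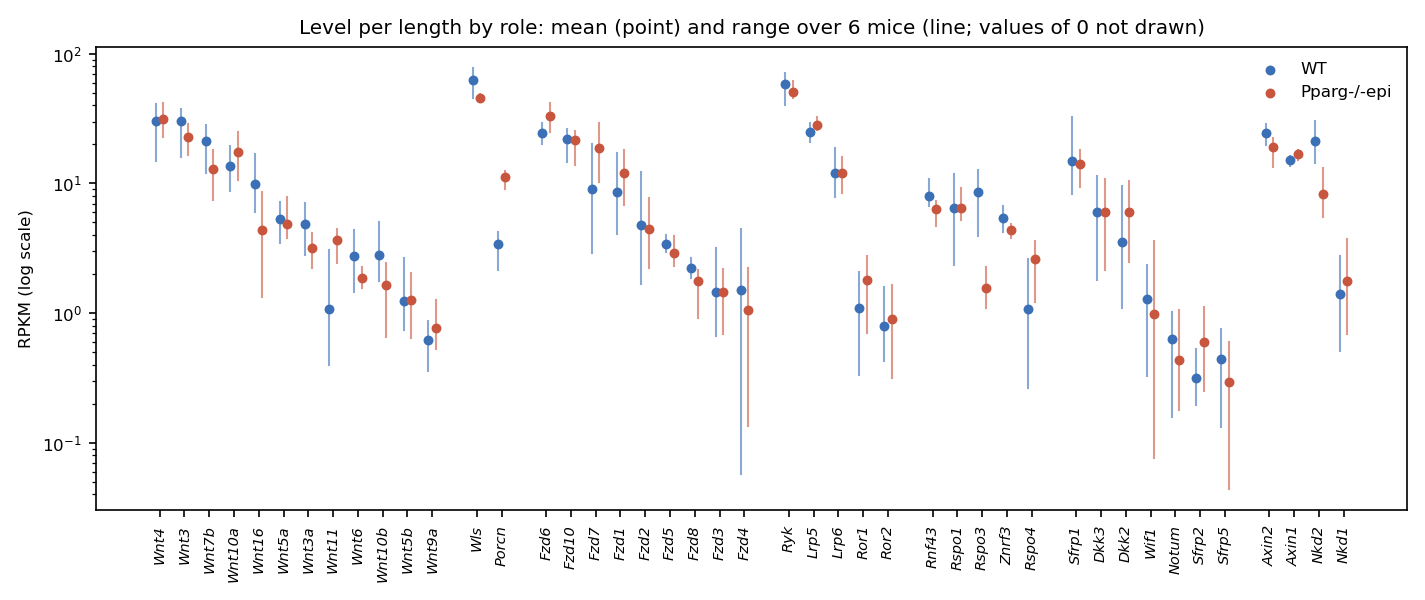
Level per length (RPKM, log scale) of the 44 genes by role, highest first within each role. Points are means and lines the range over 6 mice, in blue for WT and red for Pparg-/-epi mice. Ryk and Wls are the highest genes, near 55 RPKM, and Porcn and Rspo3 are the genes whose ranges separate most widely.

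None of the 7 secreted antagonists was altered. These proteins hold Wnt ligands (Sfrp1, Sfrp2, Sfrp5 and Wif1), remove their lipid (Notum) or occupy Lrp5 and Lrp6 (the Dkk proteins other than Dkk3). Sfrp1 was the highest at 14.4 RPKM, with medians of 53.2 CPM in WT mice (range 36.4 to 142) and 60.3 CPM in Pparg-/-epi mice (range 40.7 to 79.4) and a log2 fold change of -0.07 (SE 0.30, adjusted p = 0.906). Dkk3 had medians of 17.3 CPM (range 6.07 to 38.5) and 19.0 CPM (range 7.24 to 36.5) and a log2 fold change of 0.00 (SE 0.49, adjusted p = 1.00). WT replicate 2 was the highest WT mouse and Pparg-/-epi replicate 8 the highest of its group for both genes.

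Dkk2 showed how far a single mouse bears on these genes. Its lowest, median and highest values were 4.05, 10.6 and 35.2 CPM in WT mice and 9.23, 23.4 and 38.9 CPM in Pparg-/-epi mice. WT replicate 2 was the highest WT mouse, and the other 5 WT mice were at or below 12.4 CPM. The log2 fold change was 0.76 (SE 0.49, adjusted p = 0.339), and 1.34 without WT replicate 2 (adjusted p = 0.0295, edgeR). Its sign was not fixed, since without the WT mice numbered 226 it was -0.06. Wif1, Notum, Sfrp2 and Sfrp5 were low, between 0.367 and 1.13 RPKM, with standard errors of 0.38 to 0.89 on log2 fold changes between -0.56 and 0.95.

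The intracellular feedback genes dampen Wnt signals, and Axin2 and the Naked genes Nkd1 and Nkd2 are commonly induced by them. Of these 4 genes Nkd2 fell and none rose. It is at chr13:73819328-73847631, and its lowest, median and highest values were 46.4, 67.2 and 97.3 CPM in WT mice and 17.7, 24.7 and 42.3 CPM in Pparg-/-epi mice. Every Pparg-/-epi mouse was below every WT mouse, with Pparg-/-epi replicate 8 nearest to them. Nkd2 was 2.59-fold lower (log2 fold change -1.37, SE 0.25, adjusted p = 0.00375; exact permutation test of log2 CPM, two-sided, p = 0.00216) and was altered in all 12 fits that left out a mouse (-1.56 to -1.25). Within the WT mice, 3 of the 4 numbered 226 were between 82.8 and 97.3 CPM and the other 3 WT mice between 46.4 and 51.6 CPM. With the 2 WT mice that have other numbers alone, the log2 fold change was -0.87 (adjusted p = 0.136, edgeR).

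Axin2, the scaffold of the beta-catenin destruction complex that is often used as a readout of Wnt signalling, was not altered. Its medians were 105 CPM in WT mice (range 85.0 to 122) and 84.0 CPM in Pparg-/-epi mice (range 57.1 to 95.3), and the log2 fold change was -0.36 (SE 0.13, adjusted p = 0.0853). Its paralog Axin1 was nearly constant, with medians of 58.2 CPM (range 51.9 to 61.4) and 63.1 CPM (range 57.6 to 68.9) and a log2 fold change of 0.15 (SE 0.07, adjusted p = 0.198). Nkd1, the paralog of Nkd2, had a log2 fold change of 0.33 (SE 0.50, adjusted p = 0.710). The Naked genes had values of opposite sign, and Nkd2 was 21.4 ± 7.23 RPKM in WT mice where Nkd1 was 1.41 ± 1.02 RPKM (SD, n = 6 each).

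Genes of the pathway outside the ligand and receptor families were counted from lists. In all genes 5.19% were altered and higher and 5.08% altered and lower. In the destruction complex and its partners, 1 of 19 genes rose (Dact2, a Dishevelled antagonist, 2.00) and 1 fell (Ctnnd2, a delta-catenin, -0.86), the numbers being log2 fold changes. Csnk1a1, a kinase that primes beta-catenin, was the highest gene of this list at 200.2 RPKM and had a log2 fold change of 0.17 (SE 0.08, adjusted p = 0.147). Ctnnb1, the gene for beta-catenin, averaged 431 ± 51.3 CPM without and 527 ± 78.3 CPM with the deletion (SD, n = 6 each; log2 fold change 0.29, adjusted p = 0.113, edgeR). Of 14 TCF/LEF factors and coregulators, Tle6, a Groucho corepressor, rose (1.48, SE 0.27, adjusted p = 0.00322, edgeR) and none fell, and the highest gene, Tle5, had a log2 fold change of 0.07.

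Of 14 R-spondin receptors and other surface modulators, 1 fell (Lgr6) and none rose, and the most abundant, Sdc1, had a log2 fold change of 0.12. Of 8 further secreted modulators, Sostdc1, a BMP and Wnt antagonist of the follicle, rose (1.32, SE 0.41, adjusted p = 0.0462, edgeR) and so did Tinagl1 (1.36, SE 0.39, adjusted p = 0.0329, edgeR), with a median log2 fold change of 1.21 for the list. Sostdc1 had 16.7 to 108 CPM in WT mice and 71.5 to 156 CPM in Pparg-/-epi mice, so the groups overlapped. Of 20 planar cell polarity and noncanonical genes, Vangl1 rose (1.42, SE 0.31, adjusted p = 0.00844, edgeR) and Prickle1 fell (-0.89, SE 0.24, adjusted p = 0.0275, edgeR), and Daam1, the highest, had a log2 fold change of -0.01. When 1 mouse was left out, Lgr6, Ctnnd2, Tle6 and Vangl1 were altered in all 12 fits, Prickle1 in 7, Tinagl1 in 5, and Dact2 and Sostdc1 in 3 each, the highest adjusted p being 0.104 (Dact2, edgeR). Without the WT mice numbered 226, of these 8 genes only Lgr6 was altered.

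Of 18 genes commonly used as beta-catenin targets, 3 rose and none fell, where 5.19% of all genes were altered and higher and 5.08% altered and lower. Those that rose were Cd44, a hyaluronan receptor (1.21, SE 0.17, adjusted p = 0.000965, edgeR), and the AP-1 subunits Jun (0.69, SE 0.13, adjusted p = 0.00487, edgeR) and Fosl1 (2.32, SE 0.59, adjusted p = 0.0181, edgeR). Fosl1 was between 2.97 and 7.22 CPM in WT mice and between 6.79 and 15.7 CPM in 5 Pparg-/-epi mice, with replicate 12 at 79.4 CPM. Without that mouse its log2 fold change was 1.31 (adjusted p = 0.0108, edgeR). Without the WT mice numbered 226, Cd44 was altered and Jun and Fosl1 were not. All 3 are also induced by other signals, such as growth factors and wounding. The members among these targets, Axin2, Nkd1, Notum, Znrf3 and Rnf43, were not altered. The summed level of the target list was between 640 and 887 CPM in WT mice and between 1029 and 1410 CPM in Pparg-/-epi mice, with Cd44 alone at 243 ± 64.2 and 561 ± 82.0 CPM (SD, n = 6 each). Sums of other lists were apart as well. The destruction complex list had 1789 to 1860 CPM in WT mice and 1981 to 2196 CPM in Pparg-/-epi mice. The TCF/LEF list had 559 to 697 and 708 to 788 CPM. For the remaining pathway lists the sums of the groups overlapped.

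**Figure D4:**
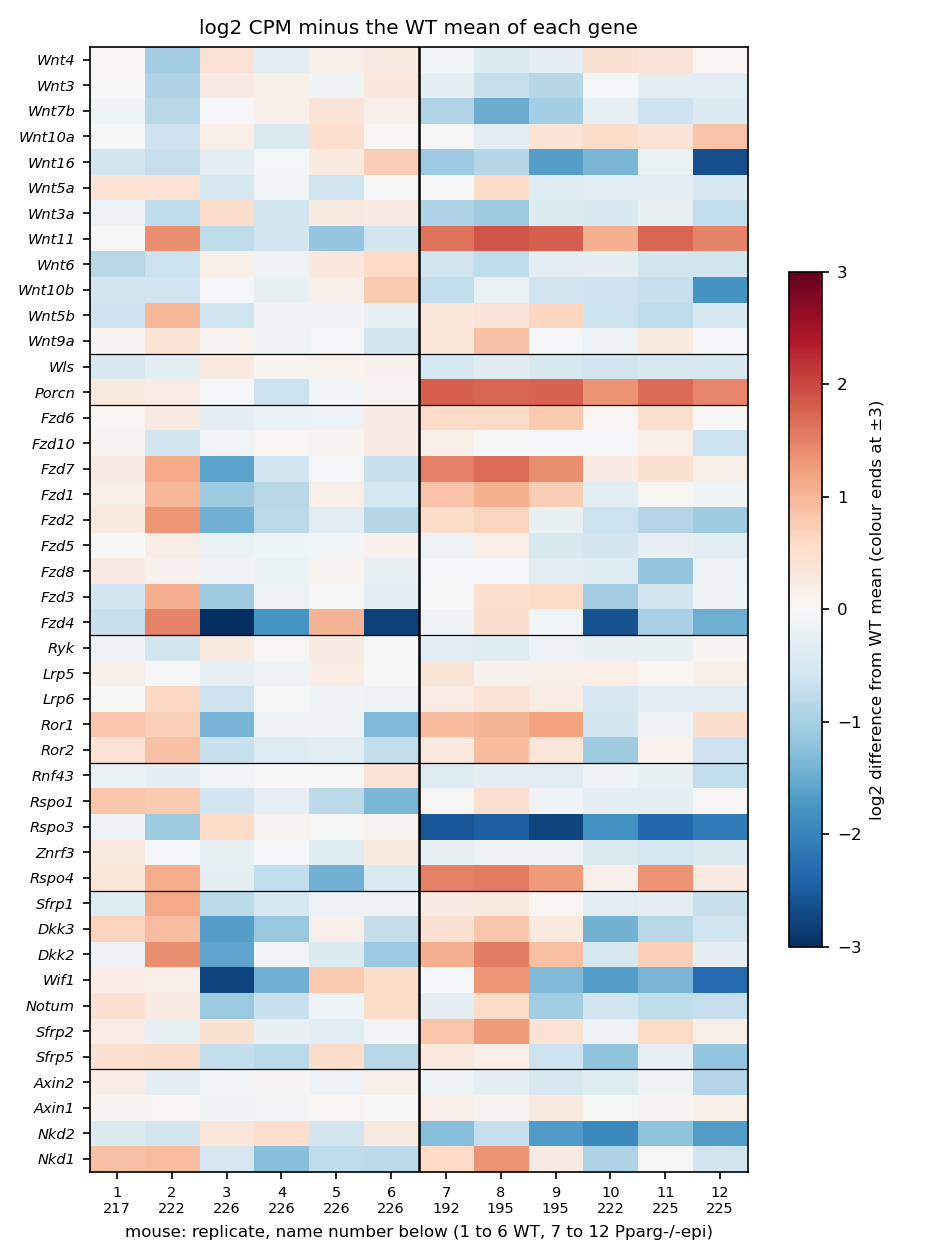
Log2 CPM of each gene minus its WT mean (colour) in each mouse (columns, with the replicate and the number in the mouse's name), with genes in rows by role. Rspo3 and Nkd2 are blue and Porcn and Wnt11 red across all 6 Pparg-/-epi mice, and WT replicate 2 and Pparg-/-epi replicates 7 to 9 share red cells among Frizzled, Ror and antagonist genes.

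The members varied between mice of one genotype as well. WT replicate 2 was the highest WT mouse for 19 of the 44 members (43.2%), against 27% of all genes, and Pparg-/-epi replicate 8 was the highest of its group for 23 members (52.3%), against 21.4% of all genes. In both mice the summed level of the 7 keratinocyte markers was the lowest of their group, at 15684 and 26704 CPM. That of the endothelial markers was the highest, at 133 and 210 CPM. Both mice also had the highest summed level of the 11 anagen matrix and hair shaft markers, at 915 and 2437 CPM. For that list the other WT mice were between 36.7 and 399 CPM and the other Pparg-/-epi mice between 122 and 752 CPM. The adipocyte, leukocyte and sebaceous gland sums were highest in these mice as well. WT replicate 2 also had the highest RIN of the WT mice, at 8.6, against 5.9 to 7.1 in the WT mice numbered 226. It was 9 weeks old, and the WT mice numbered 226 were 12 or 13 weeks old. Whether cell mixture, RNA integrity or age had a part in these members' levels was not tested. Without WT replicate 2, 10 members were altered in place of 5, Fzd7, Rspo4, Dkk2, Wnt16 and Wnt3a being added, and 15.5% of all genes were altered.

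Pparg-/-epi mice also fell into groups by the number in their names, whose meaning the labels do not give. The mice numbered 192 and 195 (replicates 7 to 9) were all above those numbered 222 and 225 (replicates 10 to 12) for 17 members (38.6%), against 23.2% of all genes, and all below them for 3 members (6.82%), against 22.1% of all genes. Fzd7, for example, was 127 ± 13.5 CPM in the first 3 mice and 53.3 ± 5.43 CPM in the others (SD, n = 3 each), and Fzd1 was 70.3 ± 8.15 and 34.6 ± 4.53 CPM. The 3 members in the reverse order were Rspo3, Wnt7b and Wnt4. RIN was 8.6, 8.5 and 7.7 in replicates 7, 8 and 9 and 7.7, 5.7 and 7.1 in replicates 10, 11 and 12. Replicates 7 to 9 were female and 12 or 13 weeks old. Replicates 10 and 12 were male, aged 8 and 10 weeks, and replicate 11 was a female of 12 weeks. The parts of RIN, sex and age in this split were not tested. With only the mice numbered from 220 up (5 WT and 3 Pparg-/-epi mice), 4 members were altered against 3.65% of all genes, namely Rspo3 (-2.24), Nkd2 (-1.69), Wls (-0.60) and Porcn (1.61), and Wnt7b and Wnt11 were not.

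**Figure D5:**
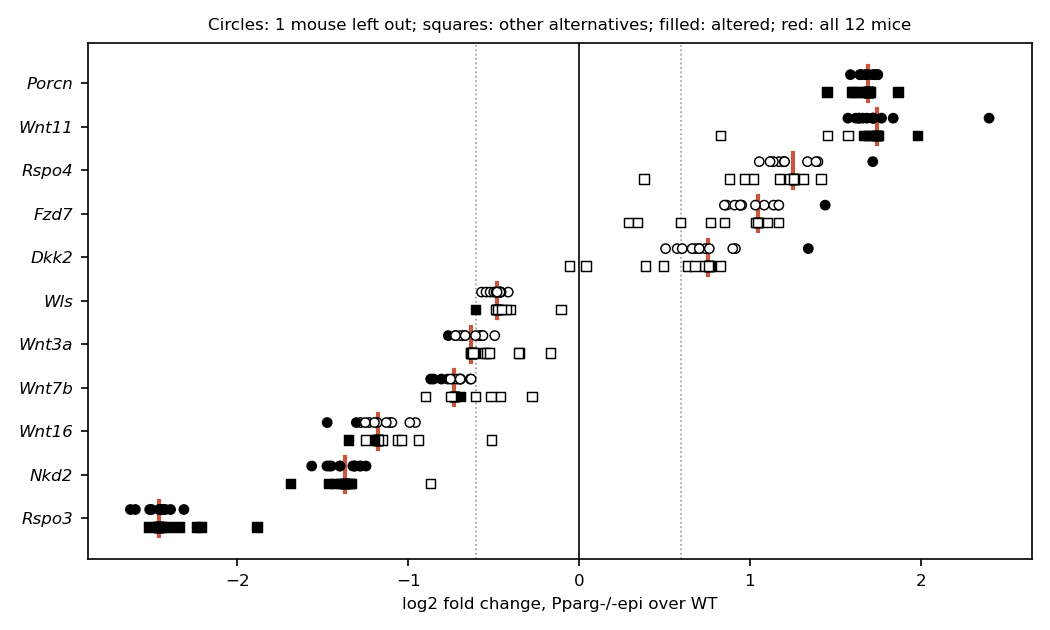
Log2 fold change (horizontal axis) of the 5 altered genes and of the 6 that were altered only in some alternative. Circles are fits without 1 mouse, squares other alternatives, filled symbols fits in which the gene was altered, and red bars the fit to all 12 mice. Rspo3 and Porcn are filled throughout, while Wnt7b and Wnt16 are filled in part of the fits and Dkk2 crosses 0.

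The effect of genotype did not differ between the sexes for any member at an adjusted p under 0.05 in edgeR's quasi-likelihood test of the interaction, and the likelihood ratio test also gave 0 members. An unadjusted p under 0.05 was found for 2 members (4.55%), Sfrp5 and Sfrp2, against 5.1% of all genes. With 2 male Pparg-/-epi mice, only large differences between the sexes could be seen.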

How the data were processed

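RNA of scraped dorsal epidermis from 6 WT and 6 Pparg-/-epi mice was sequenced as mRNA. The authors aligned reads to mm10 with STAR 2.5.2b, removed multi-mapped reads and counted reads on RefSeq genes with featureCounts (Subread 1.5.1), versions and build per the submitters' processing notes; the deposited table holds raw counts without normalization. Whether counting used strand is not given in the sources used here. Another 2800 rows name no gene and were left out.

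Counts were scaled by TMM and fitted with edgeR 4.0.16 (R 4.3.3), quasi-likelihood test, genotype as the only term, Benjamini-Hochberg over 14533 genes. The likelihood ratio test, the test the study's methods name, and DESeq2 1.42.0 were alternatives, as were other scalings, a filter at a mean of 1 CPM, covariates, subsets of mice and leaving out each mouse. The test was also run on simulated counts drawn independently for each gene and mouse. These hold no differences shared between mice, so that run does not cover the effect of single mice or name numbers. Single genes were also compared by exact permutation over 924 splits. RPKM used the table's gene lengths. At these depths 3 counts are 0.156 to 0.320 CPM. Members, lists and tests were chosen with earlier results of these data known. Named were all altered members, those whose groups did not overlap, the 2 most abundant of each role, members that an alternative called, and altered and most abundant list genes. Figures were drawn with matplotlib.

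Of the 75-base stretches of transcripts (GENCODE), Rspo3 shared 10.7% with the antisense gene Gm48159, Wnt11 6.79% with the pseudogene Gm8398 on the opposite strand of its last exon, and Wnt7b 2.86% with the antisense gene AU022754; Nkd2 and Porcn shared none.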

Additional observations from a re-analysis of the deposited data

Results flagged for a closer look

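In 12 of 88 groups of 6 mice (13.6%) 1 mouse stood apart from the others by Dixon's criterion. Its rate of about 1 in 20 groups holds for independent, normally distributed values, while the genes here were measured in the same mice. The share over all genes is not given, so the count does not set the members apart from other genes. WT replicate 2 was far above the other WT mice for Wnt5b (7.01 CPM, the next mouse at 3.00), Sfrp1 (142 CPM, next 57.6), Wnt11 (9.82 CPM, next 3.45), Dkk2 (35.2 CPM, next 12.4) and Fzd3 (40.2 CPM, next 18.6). Pparg-/-epi replicate 8 was far above its group for Wif1 (8.00 CPM, next 2.76), Notum (2.12 CPM, next 0.936), Wnt5a (34.2 CPM, next 22.8) and Rspo1 (17.0 CPM, next 12.2). WT replicate 6 was high for Rnf43 (46.5 CPM, next 34.7). Pparg-/-epi replicate 12 was low for Fzd10 (41.7 CPM, next 63.7) and high for Ryk (203 CPM, next 169). Of these genes only Wnt11 was altered, and the mouse that stood apart brought its difference closer to 0.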

How the results depend on the processing

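Of the 5 altered members, Rspo3 and Porcn were altered in every fit tried, Nkd2 in all but the fit without the WT mice numbered 226, Wnt11 in all but 3 and Wnt7b in 10 of 24. The number of altered members was 5 with all mice, 8 by DESeq2, 3 in female mice alone, 2 without the WT mice numbered 226 and 4 to 10 when 1 mouse was left out, the 10 being without WT replicate 2. Of the genes of the pathway and cell type lists, 20 were altered with all mice, 10 in females alone, 7 without the WT mice numbered 226, 7 with mice numbered from 220 up (an alternative chosen after seeing the data) and 14 to 32 when 1 mouse was left out, 32 without WT replicate 2. These subsets hold fewer mice, and without the WT mice numbered 226 the WT mice left were 8 and 9 weeks old. The cause of the change without WT replicate 2 was not tested. The lists held between 2 and 20 genes of the table each, and a gene found in several lists was counted once. Their total is not given, so these counts cannot be read as shares. In all genes the fit to all mice altered 10.3%, and fits without 1 mouse from 7.68% to 15.5%, the highest being without WT replicate 2. The 226 subset altered 2.68% of all genes, females 4.48% and mice from 220 up 3.65%. The other scalings and the low count filter each gave 5 altered members as well. Of the 44 members, 33 were altered in no fit. No paired fit was made, as the labels name no pairs of WT and Pparg-/-epi mice. Only the name number 222 occurs in both groups, and a block for numbers below 220 or from 220 up gave 4 altered members (8.27% of all genes), Wnt7b no longer passing (-0.60, adjusted p = 0.0717, edgeR). Members under 1 CPM, such as Sfrp5 with 1 to 27 counts, could show only large differences.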
